A study of Mus musculus with 16 samples.

Results

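Smooth muscle and activated fibroblast markers were followed through normal mouse skin and 12 skin carcinomas. The genes were Acta2, Tagln, Cnn1, Myh11 and Synpo2 of the contractile smooth muscle programme, and Pdgfra, Pdgfrb, Fap and Thy1 of fibroblasts and vessel wall cells. Every probeset (a set of short probes for 1 transcript region) whose array annotation gave 1 gene symbol among these 9 was taken, whatever its signal, which gave 18 of 45037 probesets, or 9 of 18193 genes. The brightest probeset on average stands for a gene here, and the others are given where they differ.

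RNA of mouse skin was hybridised to Affymetrix MOE430 2.0 arrays, 1 array per sample, and all values are log2 signals. The 4 control skin samples were normal wild-type skin. The 7 p53 tumors arose in k14Cre;p53loxP/loxP mice, and the 5 pRbp53 tumors in k14Cre;p53loxP/loxP;pRbloxP/loxP mice, which carry the floxed retinoblastoma gene as well. All samples had the FVB background, and no source used here gives a sex or age for single animals. The keratin 14 promoter drives Cre in stratified epithelia, so the stroma of these tumors was not the target of the deletion. By histology, the p53 tumors comprised 3 poorly differentiated squamous carcinomas, 2 mixed tumors, 1 undifferentiated tumor and 1 spindle cell carcinoma. The pRbp53 group held 4 spindle cell carcinomas and 1 mixed tumor, and none that was poorly differentiated. The undifferentiated and spindle tumors (6) form 1 grade, as in the design of the study, which is set against the poorly differentiated tumors (3).

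Smooth muscle cells of vessels, hair erector muscles and the myofibroblasts of wounds and tumors share an actin and its partners, and smooth muscle alpha-actin is the usual marker of activated fibroblasts. Mature smooth muscle also holds its own myosin heavy chain, which myofibroblasts mostly lack. The 2 PDGF receptors carry the growth signal that recruits fibroblasts (Pdgfra) and pericytes (Pdgfrb), and Fap and Thy1 are surface proteins used to isolate fibroblasts, Thy1 being on mouse T cells too.

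The median signal of the 16 arrays lay between 5.63 and 5.76. Control skin 2 and 4 were the most alike of the control arrays, with a standard deviation (SD) of their difference of 0.22 across probesets against 0.41 to 0.57 for the other control pairs. The actin quality probesets stood 1.33 and 1.67 higher at the 3′ than at the 5′ end in control skin 3 and p53 tumor 7, against 0.21 to 0.68 elsewhere. The milk protein gene Csn2 was above a log2 signal of 6 in control skin 3 and in p53 tumors 2, 3, 4 and 5, which include all 3 poorly differentiated tumors. The mean level of 12 keratinocyte markers was 12.13 to 12.38 in control skin, 6.58 to 10.52 in the poorly differentiated tumors and 4.85 to 6.12 in the undifferentiated and spindle tumors. Keratin 14 (Krt14) had a log2 signal of 4.41 in p53 tumor 5, labelled poorly differentiated, against 12.81 and 12.93 in the other tumors of that label.

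The promoter sequences below show what stands just before the start of 3 contractile genes. RefSeq promoter windows (GRCm38.p6) were matched for 4 of the 9 genes, Acta2, Cnn1, Synpo2 and Pdgfra. The 120 bases before the start are printed for 3 of them, 5′ to 3′ on the strand of the gene. Capitals mark matches with up to 1 mismatch to the CArG box, the motif bound by serum response factor, which drives contractile genes. The Acta2 window lies at chr19:34255374-34255493 (minus strand), that of Cnn1 at chr9:22099133-22099252 (plus strand) and that of Synpo2 at chr3:123236150-123236269 (minus strand). The start is that of the promoter window and not the outer end of the annotated gene. The Acta2 window lies inside its gene (chr19:34240336-34255585), and those of Cnn1 and Synpo2 overlap theirs.
Acta2: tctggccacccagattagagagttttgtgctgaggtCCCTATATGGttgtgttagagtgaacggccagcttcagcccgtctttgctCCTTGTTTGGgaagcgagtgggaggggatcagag
Cnn1: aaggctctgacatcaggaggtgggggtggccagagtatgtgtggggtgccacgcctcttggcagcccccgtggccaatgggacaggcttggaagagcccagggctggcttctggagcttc
Synpo2: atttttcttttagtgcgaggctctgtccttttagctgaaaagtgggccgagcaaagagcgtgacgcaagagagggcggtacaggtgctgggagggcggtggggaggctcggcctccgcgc

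Acta2 held 2 such matches, which began at -84 and -34 from the start, and none of the 250 bases before the start of Cnn1, Synpo2 or Pdgfra did. The motif was searched on both strands of 32851 promoter windows of the same length. An exact CArG box was in 1.47% of them and in none of the 4 genes, a match with up to 1 mismatch was in 18.6%, and 2 or more such matches were in 2.96%. The mismatch was allowed only after the exact search had found none.

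Acta2, which codes for smooth muscle alpha-actin, was read at log2 signals of 11.41, 11.23, 11.63 and 10.81 in control skin 1 to 4. In the p53 tumors it ran from 9.71 to 13.48 with a median of 10.70, and in pRbp53 tumors 1 to 5 it was 10.54, 11.85, 7.63, 11.54 and 11.68. The control samples fell inside the range of the tumors, with 5 tumors above all of them and 6 below all of them. The mean was 10.99 ± 1.52 (SD, n = 12) in tumors and 11.27 ± 0.35 (SD, n = 4) in control skin. The log2 difference was -0.28 ± 0.74 (standard error, SE), with an adjusted p of 0.846 from limma, a linear model fitted to all probesets, with Benjamini-Hochberg adjustment over them. The 95% interval of that difference ran from -1.85 to 1.29. Among the tumors alone Acta2 spanned 57.7-fold, from pRbp53 tumor 3, a spindle cell carcinoma, to p53 tumor 7, a mixed tumor. The probeset is of a kind whose probes can match related transcripts, so the actin value is open to such cross-matching. The other 2 Acta2 probesets were dim, between 3.15 and 4.5 in every sample. Over the 16 samples they had r = 0.71 and 0.60 with the bright one. Cross-matching was not tested.

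Tagln encodes transgelin, an actin-binding protein of smooth muscle. Its log2 signals were 9.68, 9.61, 9.99 and 9.07 in control skin 1 to 4. In p53 tumors it ran from 7.05 to 12.77 with a median of 9.53, and pRbp53 tumors 1 to 5 were at 9.28, 9.30, 7.37, 8.23 and 11.65. The tumors again surrounded the control samples, p53 tumor 7 and pRbp53 tumor 5 standing highest and p53 tumor 1 lowest. The log2 difference of all tumors from control skin was -0.19 ± 0.80 (SE; adjusted p = 0.905, limma).

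Cnn1 encodes calponin, which binds actin and slows the myosin motor of smooth muscle. Control skin 1 to 4 had log2 signals of 7.08, 6.88, 6.65 and 6.17. The p53 tumors ran from 4.21 to 9.10 with a median of 5.58, and pRbp53 tumors 1 to 5 were at 5.53, 7.23, 4.5, 4.5 and 7.17. Of the 12 tumors 7 lay below every control sample and 3 above, and the log2 difference was -0.76 ± 0.74 (SE; adjusted p = 0.562, limma). For these 3 genes the SD among tumors (1.52 for Acta2, 1.65 for Tagln, 1.52 for Cnn1) was wider than any mean difference from control skin.

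Myh11, the myosin heavy chain of mature smooth muscle, was lower in tumors. Control skin 1 to 4 had log2 signals of 9.01, 8.50, 9.08 and 7.77. Signals of 4.36 to 6.93 were read in p53 tumors, with a median of 4.76, and pRbp53 tumors 1 to 5 were at 4.45, 4.63, 4.30, 5.02 and 4.93. No tumor reached any control sample, and only p53 tumors 2 and 7 were above 6. The means were 4.96 ± 0.78 (SD, n = 12) and 8.59 ± 0.60 (SD, n = 4), a log2 difference of -3.63 ± 0.41 (SE), or 12.4-fold, with an adjusted p of 1.27e-05 (limma). A second, dim Myh11 probeset differed by -0.29 ± 0.10 (SE; adjusted p = 0.0676). These are bulk tissue samples, so fewer cells of a type and less RNA per cell cannot be told apart.

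Synpo2 encodes synaptopodin-2, an actin-bundling protein of smooth, cardiac and skeletal muscle. It had log2 signals of 10.58, 10.37, 10.55 and 10.34 in control skin 1 to 4. The p53 tumors ran from 3.91 to 6.38 with a median of 4.39, and pRbp53 tumors 1 to 5 were at 5.0, 6.45, 4.07, 4.74 and 6.33. All 12 tumors lay below all control samples. The log2 difference was -5.58 ± 0.47 (SE), 47.8-fold, with an adjusted p of 3.97e-07 (limma). Its 3 other probesets differed by -3.75 (adjusted p = 1.36e-07), -2.69 (adjusted p = 0.014) and -0.69 (adjusted p = 0.155). On the third of the 4 probesets by brightness, p53 tumor 7 read 8.47 and pRbp53 tumor 1 read 6.95, while the other 10 tumors lay between 3.96 and 4.44. The control samples read 7.14 to 7.84 there, so this probeset placed p53 tumor 7 above control skin while the brightest one placed it below.

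Of the 9 genes, 2 passed an adjusted p of 0.05 between tumors and control skin, both lower and both contractile, against 16.7% of all 18193 genes called in either direction and 9.17% called lower. Groups did not overlap for the same 2 genes, against 9.39% of all genes. Without the 5 arrays that carried Csn2, Myh11 differed by -3.61 and Synpo2 by -5.22 (adjusted p = 8.62e-05 and 0.000121, limma), and without control skin 3 and p53 tumor 7 by -3.57 and -5.69. The median log2 difference of the 9 genes was -0.76, beside 0.06 for all genes.

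**Figure D1:**
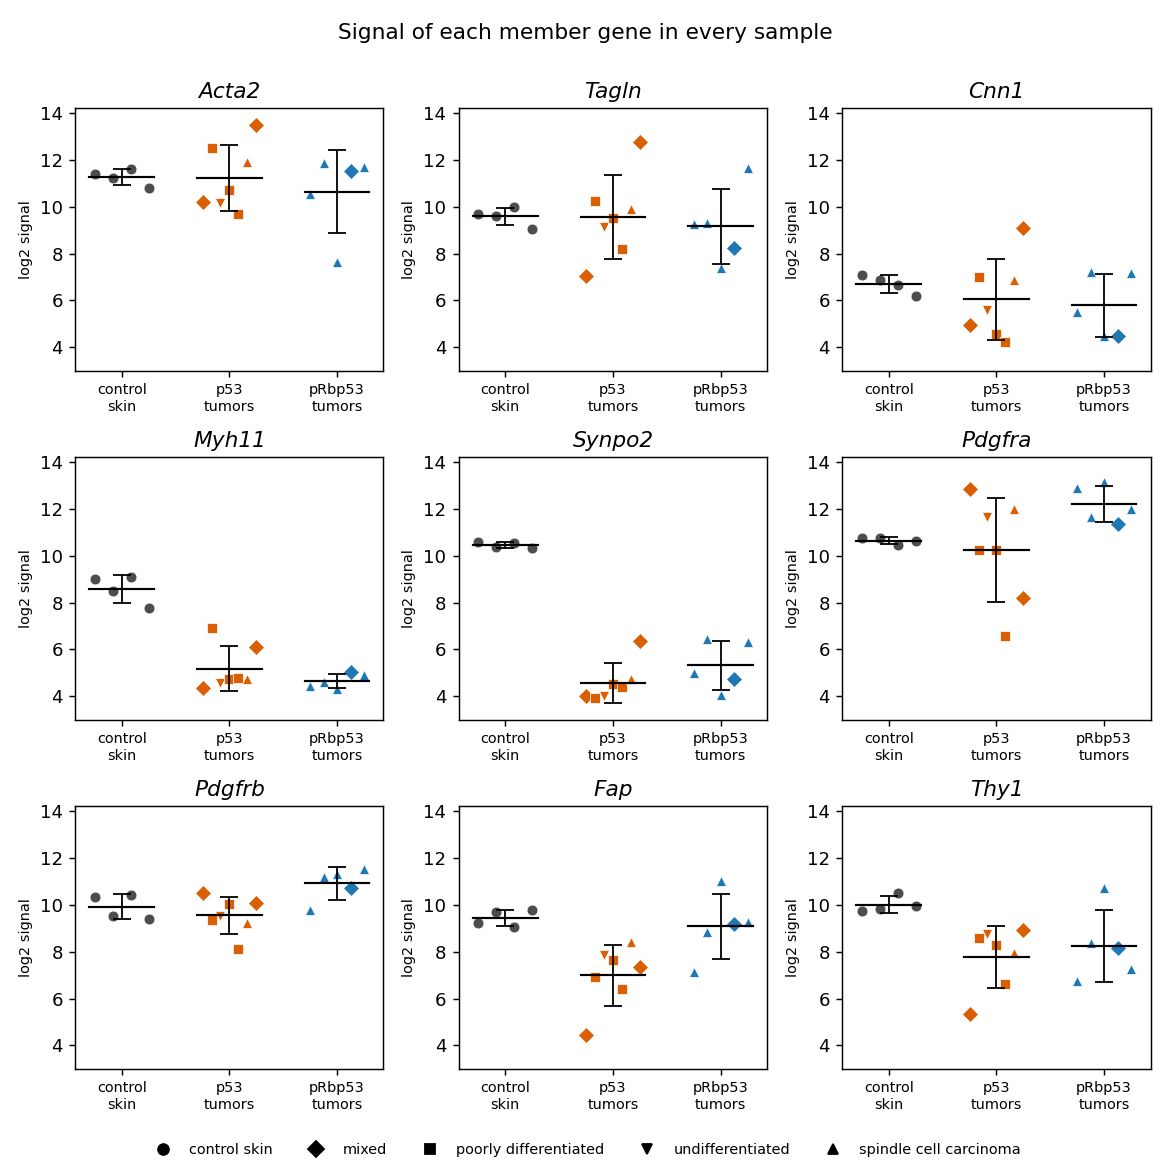
Log2 signal (vertical axis) of each of the 9 genes in every sample of control skin (n = 4), p53 tumors (n = 7) and pRbp53 tumors (n = 5). Each point is 1 sample, its shape gives the histology, and the bars show the mean and SD; Myh11 and Synpo2 separate tumors from control skin, while Acta2, Tagln and Cnn1 scatter on both sides of it.

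Pdgfra, the receptor that marks dermal fibroblasts, was read at log2 signals of 10.77, 10.75, 10.45 and 10.63 in control skin 1 to 4. It spread from 6.59 to 12.85 in p53 tumors, with a median of 10.27, and pRbp53 tumors 1 to 5 were at 12.88, 11.64, 13.17, 11.35 and 12.01. The 5 pRbp53 tumors all lay above all control samples, a separation shown by 24.5% of all genes, while 3 p53 tumors lay above and 4 below. Over all tumors the log2 difference from control skin was 0.42 ± 0.95 (SE; adjusted p = 0.819, limma). The pRbp53 tumors differed from control skin by 1.56 ± 0.99 (SE; adjusted p = 0.357, limma). The spread shared with the p53 tumors enters that fit, and the methods' t-test, which uses only the samples compared, gave an adjusted p of 0.0456.

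Pdgfrb, the receptor of pericytes and of many fibroblasts, had log2 signals of 10.33, 9.54, 10.40 and 9.39 in control skin 1 to 4. The p53 tumors ran from 8.11 to 10.50 with a median of 9.51, and pRbp53 tumors 1 to 5 were at 9.78, 11.21, 11.34, 10.70 and 11.53. Its tumor range was the narrowest of the 4 fibroblast genes, 10.8-fold, and p53 tumor 5 was the lowest sample for this gene and for Pdgfra. The log2 difference of tumors from control skin was 0.20 ± 0.50 (SE; adjusted p = 0.835, limma), and that of pRbp53 tumors from control skin was 1.0 ± 0.45 (SE; adjusted p = 0.174). With weights estimated for each array the latter was 1.36 with an adjusted p of 0.00769.

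Fap, a membrane protease of activated fibroblasts, was at log2 signals of 9.24, 9.69, 9.04 and 9.76 in control skin 1 to 4. Among p53 tumors it lay between 4.43 and 8.40, with a median of 7.35, and pRbp53 tumors 1 to 5 were at 7.12, 8.85, 11.00, 9.20 and 9.25. All p53 tumors lay below all control samples, a separation shown by 13.9% of all genes, whereas the pRbp53 tumors overlapped with them. All tumors against control skin gave a log2 difference of -1.56 ± 0.81 (SE; adjusted p = 0.236, limma). The p53 tumors gave -2.43 ± 0.70 (SE), 5.38-fold lower, with an adjusted p of 0.0337, and the pRbp53 tumors -0.35 ± 0.74 (adjusted p = 0.83). The p53 call was lost when control skin 1, 2, 3 or 4 was left out (adjusted p = 0.0762, 0.0899, 0.0634 and 0.0925), and when p53 tumor 2 or 5 was (0.0527 and 0.0523). It was also lost in the methods' t-test (0.0617), without control skin 3 and p53 tumor 7 (0.0673), with control skin 2 and 4 averaged (0.091) and without the 5 arrays that carried Csn2 (0.153).

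Thy1 encodes a glycoprotein anchored in the membrane of fibroblasts, neurons and mouse T cells. Control skin 1 to 4 had log2 signals of 9.72, 9.82, 10.51 and 9.95. The p53 tumors ran from 5.35 to 8.93 with a median of 8.29, and pRbp53 tumors 1 to 5 were at 6.76, 8.36, 10.71, 8.15 and 7.26. Of the 12 tumors 11 lay below every control sample, and pRbp53 tumor 3 lay above them all. The log2 difference was -2.02 ± 0.66 (SE), 4.07-fold, and just missed the threshold with an adjusted p of 0.0555 (limma). It passed without pRbp53 tumor 3 (-2.27, adjusted p = 0.0112), without p53 tumor 1 (-1.79, 0.0461) and without p53 tumor 7 (-2.11, 0.0471), and over its alternatives the adjusted p ranged from 0.00652 to 0.199. Markers of T cells moved the same way: of 9 measured, 6 were called lower in tumors and 3 were not called, beside 9.17% of all genes called lower. Their mean level was 6.40 to 6.67 in control skin and 5.19 to 5.88 in tumors, where pRbp53 tumor 3 was the highest. The order of the other tumors was not the same in both: pRbp53 tumor 1 was the next highest in T cell markers (5.80) with a Thy1 of 6.76, and p53 tumor 7 was at 5.22 with a Thy1 of 8.93. Their part in the Thy1 difference was not tested.

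Against the same control samples, 3 of the 9 genes were lower in the p53 tumors (Myh11, Synpo2 and Fap), beside 8.54% of all genes, and 2 in the pRbp53 tumors (Myh11 and Synpo2), beside 9.55%. The log2 differences of Myh11 were -3.41 ± 0.43 and -3.93 ± 0.46 (SE), and those of Synpo2 were -5.89 ± 0.48 and -5.14 ± 0.52. In each of the histological subtypes the same 2 genes were called lower, beside 12.5% of all genes in the undifferentiated and spindle tumors, 8.4% in the poorly differentiated and 7.26% in the mixed tumors. These comparisons share their controls. Synpo2 differed by -5.36, -6.19 and -5.41 in these subtypes, in that order, and Myh11 by -3.99, -3.11 and -3.43. In the poorly differentiated tumors the Myh11 call was lost in the methods' t-test (adjusted p = 0.0644). Pdgfra in the undifferentiated and spindle tumors was 1.57 ± 0.82 (SE) from control skin and did not pass (adjusted p = 0.21, limma), while 1 of its 2 other probesets did (1.91, adjusted p = 0.0291). It passed in the methods' t-test (0.0139) and with array weights (0.0301).

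The genotype comparison asks what the added loss of the retinoblastoma gene changed among tumors. None of the 9 genes passed an adjusted p of 0.1 in limma, beside 0.159% of all genes. The methods' t-test gave none either. At an unadjusted p under 0.05 in limma there were 2 of 9, Pdgfrb and Fap, both higher in pRbp53 tumors, beside 10.6% of all genes in either direction. Pdgfrb was at 10.91 ± 0.70 (SD, n = 5) in pRbp53 tumors and 9.55 ± 0.78 (SD, n = 7) in p53 tumors, and 4 of the 5 pRbp53 tumors lay above every p53 tumor. Its log2 difference was 1.36 ± 0.41 (SE; adjusted p = 0.322, limma). Fap was at 9.09 ± 1.38 and 7.0 ± 1.3, again with 4 of 5 pRbp53 tumors above every p53 tumor, and differed by 2.08 ± 0.73 (SE; adjusted p = 0.396). Pdgfra differed by 1.95 ± 0.97 (adjusted p = 0.571). Genotype and grade are bound together in these samples, since 4 of the 5 pRbp53 tumors are spindle cell carcinomas and all poorly differentiated tumors are p53 tumors.

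By grade, Pdgfra was higher in undifferentiated and spindle tumors than in poorly differentiated ones. It ran from 11.64 to 13.17 with a median of 12.01 in the first and was at 10.24, 10.27 and 6.59 in p53 tumors 2, 4 and 5. All 6 tumors of the first group lay above all 3 of the second, a separation that 15.9% of all genes showed. The log2 difference was 3.19 ± 0.80 (SE), 9.14-fold, with an adjusted p of 0.0457 (limma). The 2 other Pdgfra probesets differed by 3.48 (adjusted p = 0.0345) and 2.62 (adjusted p = 0.00937). This was the 1 gene of 9 called, beside 9.12% of all genes in either direction and 4.49% higher.

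The Pdgfra call by grade was close to the threshold and rested on few arrays. Without p53 tumor 5, the lowest sample, the difference was 1.97 with an adjusted p of 0.0316. Leaving out any other of the 9 arrays gave adjusted p values from 0.0523 (without p53 tumor 2) to 0.0856 (without pRbp53 tumor 1). With genotype as a covariate the difference was 2.79 (adjusted p = 0.205). All 3 poorly differentiated tumors carried the milk gene Csn2, at log2 signals of 11.65, 8.75 and 13.67, and of the other grade only p53 tumor 3 did, at 10.80. The mean level of 8 milk and mammary genes was 6.58 to 9.85 in the poorly differentiated tumors and 4.0 to 7.21 in the others of this comparison. Its part in the grade result cannot be told apart.

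The other fibroblast genes ran the same way by value but did not pass. Fap differed by 1.76 ± 0.74 (SE; adjusted p = 0.211, limma), with 5 of 6 undifferentiated or spindle tumors above all 3 poorly differentiated ones. Pdgfrb differed by 1.26 ± 0.65 (adjusted p = 0.31) and Thy1 by 0.46 ± 0.82 (adjusted p = 0.812). Of the contractile genes, Acta2 differed by -0.35 ± 1.0 (SE; adjusted p = 0.886), Tagln by 0.11 ± 0.82 (0.961) and Cnn1 by 0.88 ± 0.79 (0.586). Myh11 differed by -0.88 ± 0.44 (0.3) and Synpo2 by 0.83 ± 0.58 (0.473). The 3 mixed tumors did not lie together. The highest Acta2, Tagln and Cnn1 of all 16 samples were in p53 tumor 7, with a low Pdgfra (8.21). In p53 tumor 1 Tagln, Fap and Thy1 were the lowest and Pdgfra was high (12.85). The mean keratinocyte marker level of p53 tumor 7 was the highest of the 12 tumors (12.10). Its relation to these contractile genes was not tested.

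**Figure D2:**
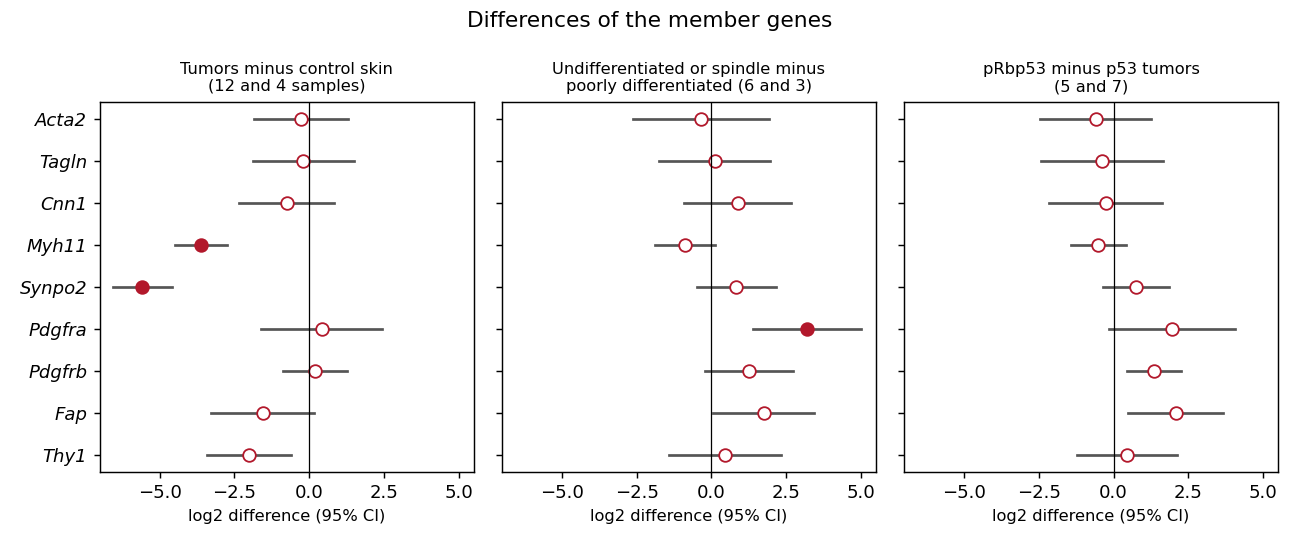
Log2 difference with its 95% confidence interval (horizontal axis) of each gene for tumors minus control skin, undifferentiated or spindle minus poorly differentiated tumors, and pRbp53 minus p53 tumors. Filled points passed the threshold of their comparison: Myh11 (-3.63) and Synpo2 (-5.58) in the first, Pdgfra (3.19) in the second and none in the third.

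Across the 12 tumors the smooth muscle actin genes varied together. All 36 pairs of the 9 genes were computed with permutation tests (100000 permutations, two-sided), and 3 pairs passed an adjusted p of 0.05 on Pearson's r. Tagln and Cnn1 had r = 0.86 (p = 0.00028, adjusted p = 0.01) and Spearman's rho = 0.78 (p = 0.0044, adjusted p = 0.054). Acta2 and Cnn1 had r = 0.80 (p = 0.0019, adjusted p = 0.034) and rho = 0.76 (p = 0.006, adjusted p = 0.054). Acta2 and Tagln had r = 0.78 (p = 0.0033, adjusted p = 0.04) and rho = 0.85 (p = 0.001, adjusted p = 0.036). Without the 2 tumors farthest from the median on the first gene of each pair, r was 0.69, 0.76 and 0.60 in that order. Within the 7 p53 tumors r was 0.88, 0.95 and 0.89.

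None of the 12 pairs of Acta2, Tagln or Cnn1 with a fibroblast gene passed over the 12 tumors, with r from -0.33 to 0.17 (permutation adjusted p of 0.71 or more). Within subsets of the tumors r was larger and differed in sign: Tagln with Thy1 had r = 0.82 in the 7 p53 tumors and -0.77 in the 6 undifferentiated or spindle tumors. Without p53 tumor 7 and pRbp53 tumor 3, Acta2 had r = 0.55 with Fap and 0.52 with Thy1. Acta2 had r = -0.30 with Pdgfra (permutation p = 0.33, adjusted p = 0.71; rho = -0.33, p = 0.3, adjusted p = 0.61) over the 12 tumors. The highest Pdgfra tumor, pRbp53 tumor 3, had the lowest Acta2 (7.63), and the highest Acta2 tumor, p53 tumor 7, had a Pdgfra of 8.21. Without these 2 tumors, the farthest from the Acta2 median, Acta2 and Pdgfra had r = 0.26. Fap and Thy1 had r = 0.76 (permutation p = 0.0064, adjusted p = 0.058) and rho = 0.45 (p = 0.15, adjusted p = 0.51) over the 12 tumors. That relation rests on p53 tumor 1 and pRbp53 tumor 3, since r was 0.18 without them. Pdgfra and Pdgfrb had r = 0.61 (permutation p = 0.034, adjusted p = 0.15; rho = 0.43, p = 0.17, adjusted p = 0.51), and 0.35 without p53 tumors 5 and 7.

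**Figure D3:**
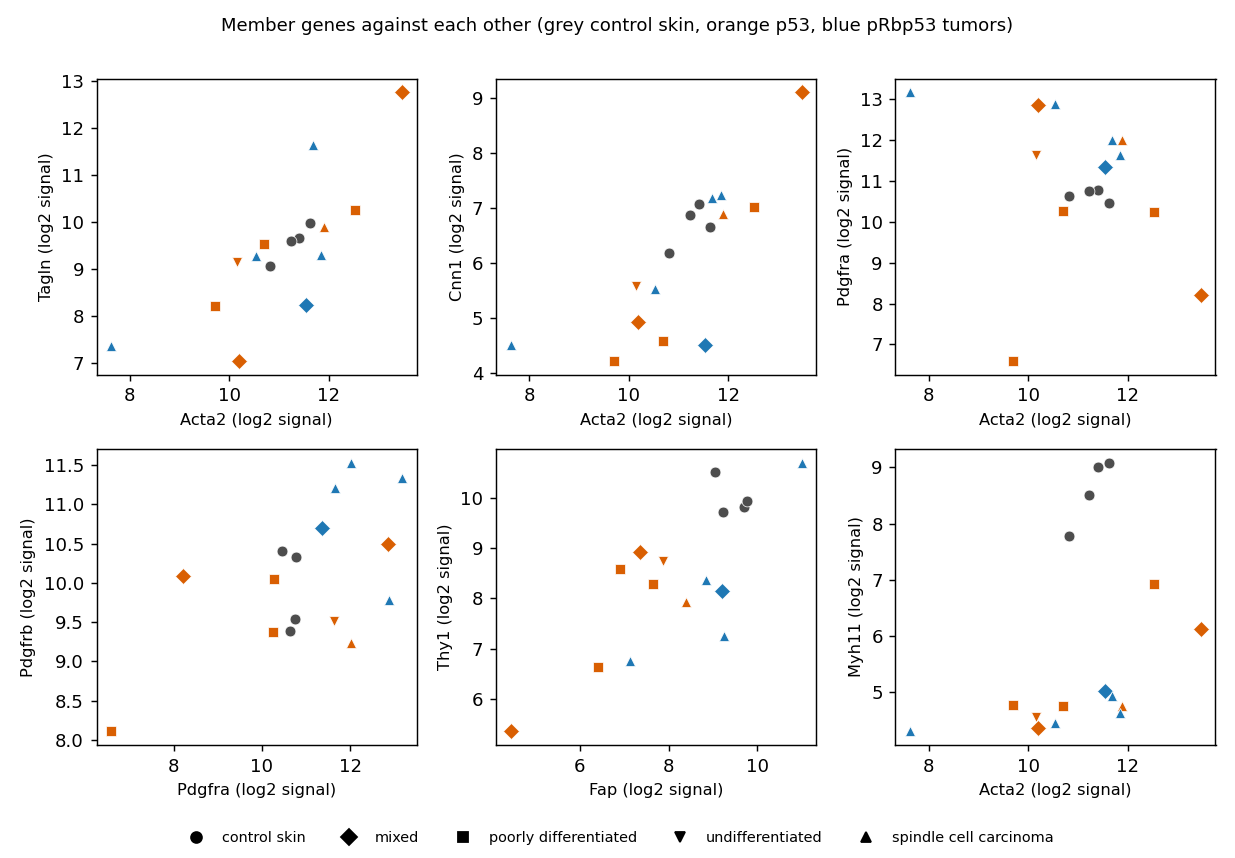
Log2 signals of 6 pairs of the genes against each other, 1 point per sample, colour for the group and shape for the histology. Acta2 rises with Tagln and Cnn1 among the 12 tumors (r = 0.78 and 0.80), pRbp53 tumor 3 stands at the low end of Acta2 and the high end of Fap, Thy1 and Pdgfra, and the control samples stand apart from the tumors in Myh11.

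Each gene was also set against all other genes, and the 3 most alike by Pearson's r over the 12 tumors are given as a description. For Acta2 they were Cbx8 (r = 0.87), Tiam2 (0.86) and Myl9 (0.85), the last a regulatory light chain of smooth muscle myosin. For Tagln they were Dctn4 (0.92), Zbtb21 (0.88) and Rgl2 (0.88), and for Cnn1 Bicd2 (0.92), Dctn4 (0.90) and 2310061N02Rik (0.90). Myh11 was closest to Pnpla3 (0.95), Rptn (0.95) and Fam25c (0.95), of which Rptn encodes repetin, an epidermal cornified envelope protein. Synpo2 was closest to Snapc2 (0.95), Mcoln1 (0.93) and Des (0.93), which encodes the muscle intermediate filament desmin. Pdgfra was closest to Mtfr1l (0.96), Dpysl2 (0.94) and Lrrk2 (0.94), and Pdgfrb to Leprot (0.91), Antxr1 (0.89) and Mmp11 (0.89), a matrix protease. Fap was closest to Slc43a3 (0.90), Zbtb34 (0.90) and Flt4 (0.90), and Thy1 to Aoc3 (0.87), Pcsk5 (0.86) and Prr23a3 (0.84).

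Over all 16 samples, control skin included, Synpo2 was most like Tmem182 (r = 0.99), Des (0.98) and Actn2 (0.98), and Myh11 most like Slurp1 (0.98), Cysrt1 (0.98) and Fam25c (0.98). Actn2 encodes the sarcomere alpha-actinin of striated muscle, and Slurp1 a secreted protein of keratinocytes. The gap between control skin and tumors enters these values, while Myh11 with Fam25c and Synpo2 with Des were also alike over the 12 tumors alone.

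Synpo2 and Myh11 were thus read beside markers of skeletal muscle and keratinocytes, which control skin held at high levels. The mean log2 level of 12 skeletal muscle genes was 13.18 to 13.40 in control skin and 4.45 to 8.77 in tumors. Of all genes 9.17% were called lower in tumors, and all 12 of these skeletal muscle genes were. The tumors highest in them were pRbp53 tumor 5 (8.77), pRbp53 tumor 2 (7.31) and p53 tumor 7 (6.44), and these same 3 were the tumors with Synpo2 above 6. The keratinocyte level was highest among tumors in p53 tumor 7 (12.10) and p53 tumor 2 (10.52), the same 2 with Myh11 above 6, while p53 tumor 4 (10.40) had Myh11 at 4.76. In its other sample set, the paper reported that genes lower in tumors were related to muscle development and physiology. It proposed that muscle layers of the dermis were missing from the tumors. The part of skeletal muscle and of epithelium in the Synpo2 and Myh11 differences was not tested here.

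**Figure D4:**
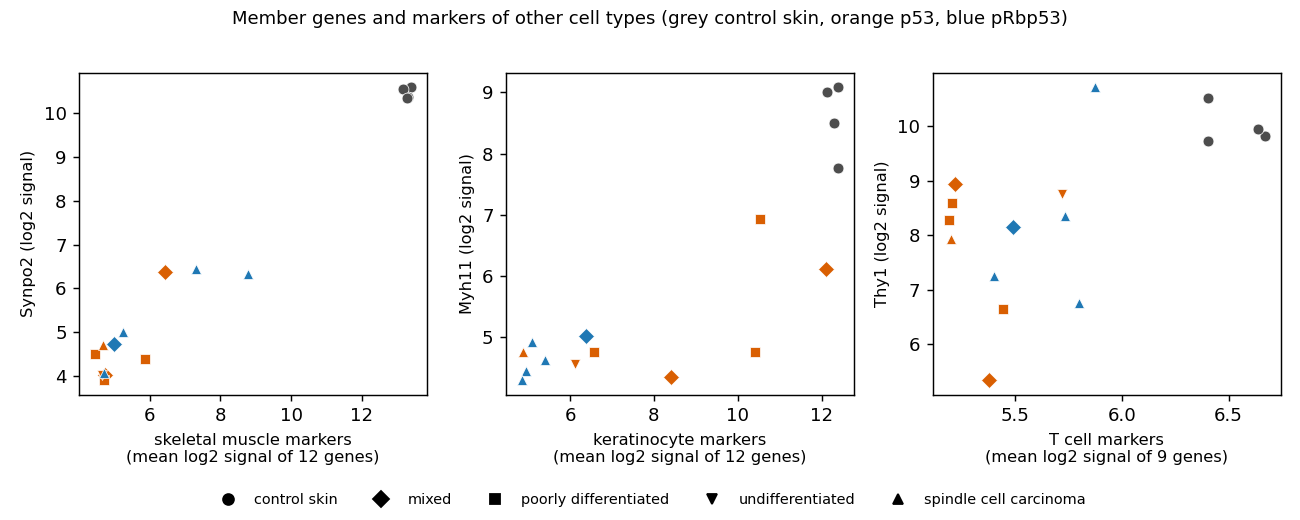
Log2 signal of Synpo2, Myh11 and Thy1 (vertical axes) against the mean log2 signal of marker genes of skeletal muscle (12), keratinocytes (12) and T cells (9), 1 point per sample. Control skin is highest on each horizontal axis, and the 3 tumors with Synpo2 above 6 are the 3 highest in skeletal muscle markers.

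Of 29 other genes of contractile smooth muscle measured, 6 fell, 3 rose and 20 did not pass between tumors and control skin, with a median log2 difference of -0.19. Of all genes 9.17% were called lower and 7.57% higher, so the share that rose was near that of all genes. The largest falls were in Pdlim3 (-5.03 ± 0.55, SE), Synm (-4.97 ± 0.57) and Des (-4.60 ± 0.54), which encode a Z-disc adaptor, synemin and desmin and are also genes of striated muscle. The rises were in Pdlim7 (2.01 ± 0.47, SE), Cald1 (1.47 ± 0.23) and Actn1 (1.17 ± 0.37), the genes of a cytoskeletal adaptor, caldesmon and non-muscle alpha-actinin. Cald1 was above every control sample in all 12 tumors, between 11.45 and 12.89 against 10.52 to 11.02. Groups did not overlap for 9.39% of all genes in this comparison. Of the other actins, skeletal Acta1 (-7.19 ± 0.88, SE) and cardiac Actc1 (-1.85 ± 0.30) fell, and smooth muscle Actg2 (-1.37 ± 0.53; adjusted p = 0.107), Actb (0.22 ± 0.10; 0.17) and Actg1 (0.25 ± 0.10; 0.113) did not pass in limma. By grade, 1 of the 29 contractile genes was called, beside 9.12% of all genes: Ppp1r14a (-0.77 ± 0.19, SE), an inhibitor of myosin phosphatase. Its signals were dim in both grades, 4.52 to 5.19 in the poorly differentiated tumors and 3.77 to 4.48 in the undifferentiated or spindle tumors.

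Pericyte and vessel wall genes gave no call between tumors and control skin among 10 measured (median -0.45), from Ndufa4l2 (-2.00 ± 1.26, SE; adjusted p = 0.339) to Higd1b (1.0 ± 0.42; 0.14). At an unadjusted p under 0.05 in limma there were 3 of the 10, beside 30.6% of all genes. By grade 1 of the 10 was called, beside 9.12% of all genes in either direction. This was the receptor Notch3, which fell by 2.55 on the log2 scale (SE 0.46; adjusted p = 0.0129, limma). Of the genes that did not pass, 8 had differences below 0, and Cspg4 had one above 0. In Pdgfrb, which the same cells carry, the value was above 0 as well (1.26).

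Most fibroblast genes did not pass between tumors and control skin. Of 25 genes of resident fibroblasts, 6 fell in tumors, none rose and 19 did not pass, beside 9.17% of all genes called lower, with a median of -0.89, led by Clec3b (-4.32 ± 0.24, SE), Pi16 (-4.21 ± 0.44) and Dpp4 (-4.08 ± 0.58), surface and secreted proteins of the quiescent dermis and fascia. The 2 lists were not tested against each other. Of 22 genes of activated fibroblasts, 5 rose, none fell and 17 did not pass, beside 7.57% of all genes called higher, with a median of 0.92, led by the matrix genes Tnc (4.21 ± 0.90, SE) and Col11a1 (3.91 ± 1.11) and by Lrrc15 (2.71 ± 0.72). Fap, usually placed among the activated genes, was at -1.56 in the same comparison.

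By grade the called genes of both fibroblast lists were higher in the undifferentiated and spindle tumors, beside 4.49% of all genes called higher. Of the resident genes 11 of 25 rose, none fell and 14 did not pass (median 2.17), with Crabp1 (5.51 ± 1.07, SE), S100a4 (3.96 ± 0.96) and Ddr2 (3.77 ± 0.40) foremost. Of the activated genes 11 of 22 rose, none fell and 11 did not pass (median 2.41), with the BMP antagonist Grem1 (5.33 ± 0.76, SE), Thbs2 (4.47 ± 0.62) and Tnc (3.65 ± 0.62) foremost. The mean level of the activated list was 9.40 to 10.87 in the 6 undifferentiated or spindle tumors, 7.13 to 8.28 in the poorly differentiated tumors and 8.05 to 8.32 in control skin. The mean level of the resident list was 9.65 to 10.99, 7.06 to 8.41 and 10.60 to 10.86 in the same order. Its median difference from control skin was -3.19 in the poorly differentiated tumors and -0.34 in the undifferentiated or spindle tumors. All genes had medians of 0.03 and 0.05 there, and of 0.02 by grade. Macrophage markers rose with them, 9 of 10. Their mean level was 9.48 to 11.10 in the undifferentiated or spindle tumors and 7.85 to 8.49 in the poorly differentiated ones. The part of macrophages in the fibroblast results was not tested. The paper reported features of an epithelial-mesenchymal transition of the carcinomas in undifferentiated and spindle tumors. Vimentin (Vim), which it names among the higher genes, is in the resident list. Whether carcinoma cells or fibroblasts carried Pdgfra and the genes of these lists was not tested.

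Of 13 ligands, receptors and mediators of PDGF and TGF-beta signals, 2 passed between tumors and control skin, a share near the 16.7% of all genes called there. Both were higher in tumors, Pdgfc (1.5 ± 0.45, SE), a ligand of the PDGF alpha receptor, and Tgfb1 (0.89 ± 0.25), the ligand known to switch fibroblasts to the contractile state. By grade 1 of the 13 passed, beside 9.12% of all genes, the receptor Tgfbr2 (2.04 ± 0.39, SE), and Pdgfc was at -0.58 ± 0.52 (adjusted p = 0.587, limma).

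**Figure D5:**
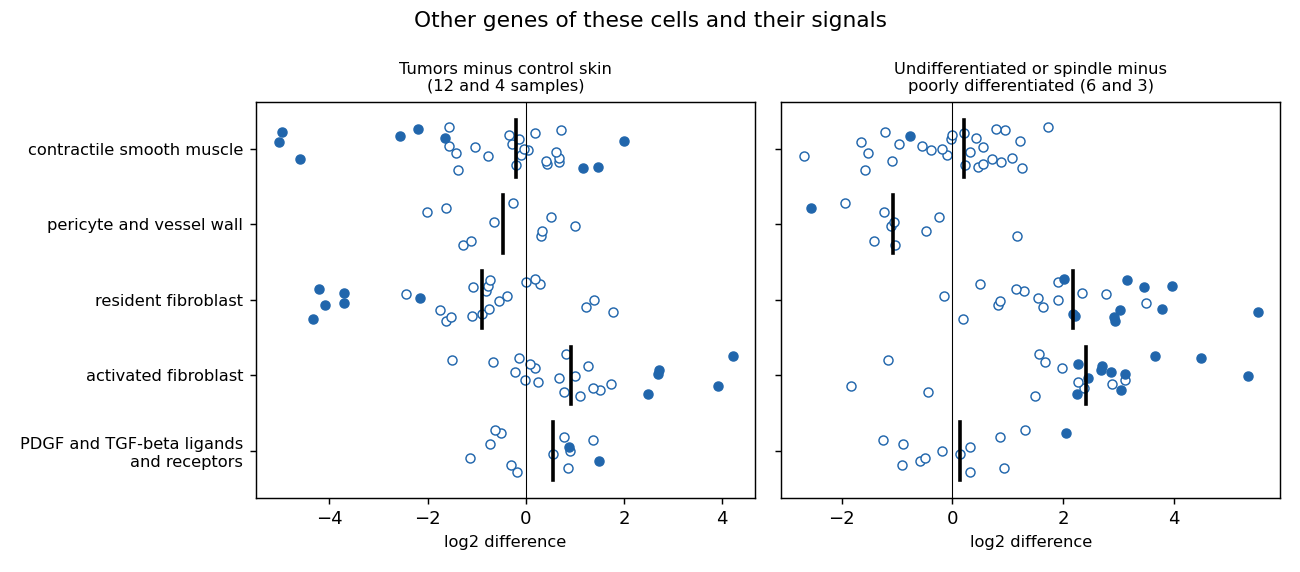
Log2 differences (horizontal axis) of the genes in 5 lists for tumors minus control skin and for undifferentiated or spindle minus poorly differentiated tumors. Each point is 1 gene, filled where it passed an adjusted p of 0.05, and the black bar is the median of the list (2.17 and 2.41 for resident and activated fibroblasts by grade).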

How the data were processed

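RNA from 16 samples was measured on 1-colour arrays. The deposited values are log2 signals that the authors made with RMA (background correction, normalization of arrays to a shared distribution, summary of the probes of a probeset); no version is given in the sources used here. RMA compresses the differences of dim probesets, and precision is limited by how few arrays there are.

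Of 45101 probesets, 64 array controls were left out. Every other probeset was fitted with limma 3.58.1 (R 4.3.3), two-sided, after a run on simulated data. The paper describes the set as 12 tumors and 4 normal skin samples. Nothing in the labels says that samples of a group came from separate animals. The p-values measure the spread between these samples, some of which may share an animal. Between control skin samples that spread may be technical. The array annotation is of 2016.

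The genes and lists were chosen with earlier results of these data known. Named are all 9 genes, up to 3 called genes each way from each list, and 3 genes most alike. List genes lacking a probeset with 1 symbol are not analysed here. Alternatives were other normalizations, priors, array weights, probeset choices, covariates, sample subsets, thresholds, a replicate block and the methods' t-test; 2 were chosen after seeing the data. Figures used matplotlib 3.10.9.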

Additional observations from a re-analysis of the deposited data

Results flagged for a closer look

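Synpo2 in p53 tumor 7 stood apart from the other 6 p53 tumors, at a log2 signal of 6.38 against 4.72 in the nearest of them. In p53 tumor 7, of mixed histology, the actin quality probesets differed most between their ends (1.67). Of 36 combinations of gene and group examined this was the only one with a sample that stood apart, where chance gives about 1 in 20.

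Pdgfra differed by grade, by 3.19 on the log2 scale between undifferentiated or spindle and poorly differentiated tumors. All 6 tumors of one grade lay above all 3 of the other, a separation that 15.9% of all genes showed. The call held in 1 of the 9 fits that left out 1 array. It was lost with genotype as a covariate (adjusted p = 0.205, limma) and in the methods' t-test (adjusted p = 0.106).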

How the results depend on the processing

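Of 1361 recomputed differences of the 9 genes, 1287 kept their direction and their side of the threshold, 24 lost and 25 gained a call, and 25 changed sign, none of them in a called difference. Myh11 and Synpo2 stayed lower in tumors than in control skin under every alternative of that comparison, from -3.90 to -1.96 and from -5.87 to -3.18. The count of genes called rose from 2 to 4 with array weights in pRbp53 tumors and in undifferentiated or spindle tumors against control skin. By grade it fell from 1 to 0 with the replicate block, the methods' t-test, genotype as a covariate, the undifferentiated tumor left out and mixed tumors pooled with the poorly differentiated, and lay between 0 and 1 when single samples were left out.

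The signs that changed belonged to small differences. With 1 sample left out, tumors against control skin ranged from -0.51 to 0.024 for Acta2 and from -0.50 to 0.020 for Tagln, and pRbp53 tumors against control skin from -0.82 to 0.14 for Fap. Between genotypes the range was -0.89 to 0.17 for Acta2, -1.01 to 0.15 for Tagln, -0.62 to 0.25 for Cnn1 and -0.15 to 0.84 for Thy1. By grade it was -0.99 to 0.42 for Acta2, -0.46 to 0.57 for Tagln and -0.14 to 0.83 for Thy1. Between genotypes Tagln and Cnn1 were 0.33 and 0.52 with the replicate block, 0.073 and 0.17 with array weights, and 0.15 and 0.25 without control skin 3 and p53 tumor 7. By grade Acta2 was 0.65 with the replicate block and 0.051 with genotype as a covariate, and Tagln -0.078 with array weights. The cause was not tested.

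The replicate numbers of the labels share only a number: of 13 pairs of same-numbered samples 3 had deviations that correlated above 0.1 (from -0.23 to 0.25). With the number as a block, Thy1 in tumors passed (-1.88, adjusted p = 0.0361) and Pdgfra by grade did not (3.41, adjusted p = 0.415, limma). The methods' t-test on probesets called 56 by genotype, 1950 by grade and 5431 in tumors.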
